A study of Oryza sativa with 12 samples.

Results

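Chlorophyll is taken apart in a fixed order when a leaf ages or is stressed, and the proteins that carried it are removed at the same time. The 7 rice genes described here cover both tasks. They are NYC1 and NOL, the reductases that begin to turn chlorophyll b into chlorophyll a, SGR (STAY-GREEN), which takes the magnesium out of chlorophyll a, NYC3, the pheophytinase that cuts off the phytol tail, and PAO, the pheophorbide a oxygenase that opens the ring. CV (CHLOROPLAST VESICULATION) drives vesicles with chloroplast proteins to the vacuole. STR9 (SULFURTRANSFERASE 9) is a rhodanese-type protein similar to DIN1, a gene induced by darkness and senescence in Arabidopsis. The members were taken by their identifiers, 7 of the 39967 genes in the table, and the FPKM of all transcripts of a gene was summed. The set was chosen by its FPKM values in wild-type (WT) leaves without phosphate (Pi) against WT control leaves, a contrast in which CV, STR9 and NYC3 stood out. Differences that involve WT libraries are therefore described and not tested.

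Messenger RNA was sequenced from leaves of 12 rice samples, in 4 groups of 3 replicates. The groups were phr2 no Pi, phr2 control, WT no Pi and WT control. The phr2 plants are labelled as a PHR2 knockout, and PHR2 is a MYB-type transcription factor that directs the response to Pi shortage. WT is the cultivar ZH11, the wild type named in the series' design text, which also names dgp1 mutants that are not analysed here. All plants grew on 1/2MS medium. For the no Pi groups, plants were moved to that medium without Pi at an age of 3 weeks and leaves were taken on day 3. The control plants are also given an age of 3 weeks, but the labels give no day of harvest for the control groups. The labels name neither the kind of allele nor the number of lines, and do not say whether replicates were separate plants, so p-values measure only the spread between these libraries, which may be technical.

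Between 10109727 and 13122430 fragments per library, called reads below, were recovered from the deposited values. The level of PHR2 itself could not check the genotype labels, since its groups overlapped, with 23.2 to 29.7 FPKM in phr2 no Pi and 21.4 to 29.6 FPKM in phr2 control, against 24.7 to 31.5 FPKM in WT no Pi and 17.9 to 27.5 FPKM in WT control. The library labelled phr2 no Pi replicate 3 stood apart from its group: its mean correlation across genes was 0.871 with its own group and 0.904 with the WT libraries, and the library most like it was replicate 2 of WT no Pi (r = 0.968). Whether these labels were mixed up cannot be told from the files. This bears on every phr2 no Pi and WT no Pi value and on each comparison that uses them, the phr2 response included. That WT no Pi library in turn had a mean correlation of 0.883 with the phr2 libraries and 0.871 with the WT libraries. WT control replicate 1 had the lowest mean correlation with its own group (0.855). The library most like WT control replicate 3 was also phr2 no Pi replicate 3 (r = 0.950), ahead of WT control replicate 2 (0.928). Of 36 genes matched as leaf markers, 20 were at 1 FPKM or more in at least 3 libraries. Their summed FPKM was 55943 to 117374 in phr2 no Pi and 78887 to 119289 in phr2 control, against 37092 to 52379 in WT no Pi and 92915 to 157125 in WT control. Of the leaf markers 12 were listed at 0 everywhere, among them a Rubisco small subunit gene (Os12g0274700) and phosphoribulokinase (Os02g0698000). Of 17 root markers 6 reached that level, 3 were at 0 throughout, and their sum was 60.0 to 86.1 FPKM in phr2 no Pi and 49.7 to 266 FPKM in phr2 control, against 67.1 to 117 FPKM in WT no Pi and 40.3 to 126 FPKM in WT control. Of 64 genes named as MADS-box factors, used as panicle and flower markers, 26 reached it and 19 were at 0 throughout, with sums of 701 to 829 FPKM in phr2 no Pi and 832 to 913 FPKM in phr2 control, against 660 to 1167 FPKM in WT no Pi and 637 to 1447 FPKM in WT control. The WT no Pi libraries, which had the highest CV and STR9 means, also had the lowest leaf marker sums on the deposited scale. The FPKM sum of a whole library differed as well, at 1162550 to 1457880 in WT no Pi and 1410690 to 2292700 in WT control. The part of leaf composition in the results was not tested, and in bulk leaf RNA fewer cells of a type and less RNA per cell cannot be told apart.

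Of the 7 genes, 6 were listed above 0 in all 12 libraries and entered the fit, and 22648 genes passed the same filter (FPKM of at least 1 in at least 3 libraries). All 6 had their highest group mean in WT no Pi, a place that the choice of the genes favoured. None of them passed the test for a response to Pi withdrawal in phr2, where 0 of all 22648 genes passed. PAO was listed at 0.

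**Figure D1:**
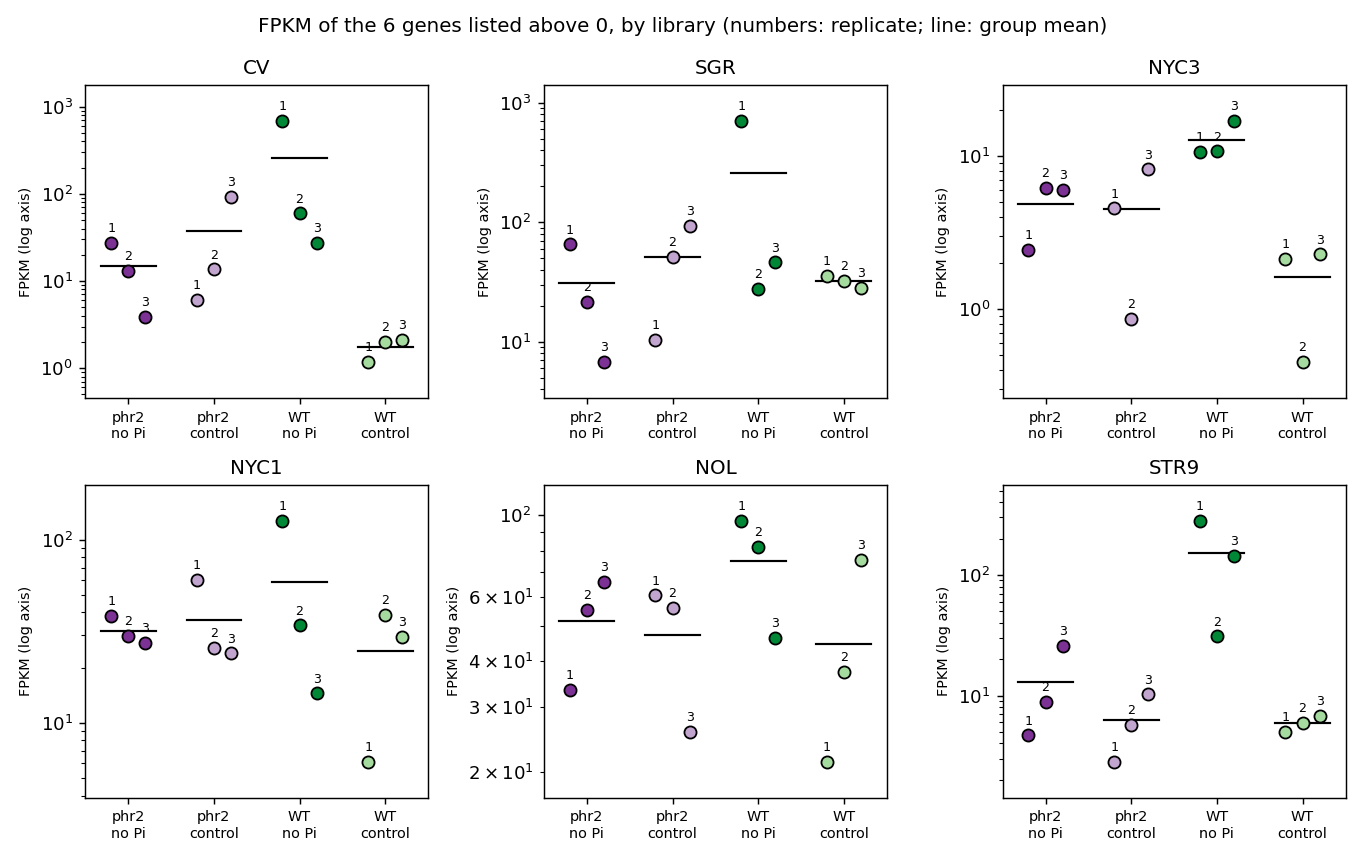
FPKM of the 6 genes listed above 0, on log axes, in each library of the 4 groups. Points are libraries numbered by replicate and lines are group means. WT no Pi replicate 1 is the highest of the 12 libraries for CV, SGR, NYC1, NOL and STR9.

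CV lies on chromosome 5, from 28647699 to 28648244 on the plus strand (Os05g0575000), with 1 transcript and a coding length of only 216 bases. It had 27.4, 13.0 and 3.89 FPKM in phr2 no Pi replicates 1 to 3, against 6.05, 13.6 and 92.6 FPKM in phr2 control. The WT no Pi libraries gave 687, 59.8 and 27.5 FPKM, against 1.18, 2.00 and 2.12 FPKM in WT control. All WT no Pi values lay above all WT control values, and every phr2 library of either medium also lay above WT control. The phr2 groups overlapped each other. The WT control level rested on 2, 4 and 5 reads, with exact Poisson 95% intervals of 0.242 to 7.22, 1.09 to 10.2 and 1.62 to 11.7 reads, which cover counting error only. In WT no Pi replicate 1 the same gene had 1895 reads. Within WT no Pi the highest library was 25.0 times the lowest, and within phr2 control 15.3 times.

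SGR (Os09g0532000, chromosome 9, 20868846 to 20871077, minus strand, coding length 825 bases) had 65.1, 21.4 and 6.76 FPKM in phr2 no Pi, against 10.3, 50.8 and 93.3 FPKM in phr2 control. In WT it had 702, 27.5 and 46.0 FPKM without Pi, against 35.3, 32.2 and 28.2 FPKM in control medium. Only WT no Pi replicate 1 stood far above the rest, at 15.2 times the next library of its group. The other WT no Pi libraries lay beside WT control, and the groups overlapped. SGR and CV shared their highest libraries: WT no Pi replicate 1 came first and phr2 control replicate 3 second for both genes.

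NYC1 and NOL encode related short-chain dehydrogenases for the same step, the reduction of chlorophyll b. NYC1 (Os01g0227100, chromosome 1, 7024297 to 7030591, plus strand) had 38.2, 29.7 and 27.2 FPKM in phr2 no Pi, against 60.0, 25.5 and 23.9 FPKM in phr2 control. Its WT no Pi libraries gave 127, 34.0 and 14.4 FPKM, against 6.13, 38.7 and 29.5 FPKM in WT control. All groups overlapped, the highest and the lowest value both being WT libraries with replicate number 1. NOL (NYC1-LIKE, Os03g0654600, chromosome 3, 25520279 to 25525342, minus strand) had 33.5, 55.1 and 65.8 FPKM in phr2 no Pi, against 60.4, 55.7 and 25.7 FPKM in phr2 control. It had 96.5, 81.9 and 46.3 FPKM in WT no Pi, against 21.3, 37.4 and 75.3 FPKM in WT control. NOL was the steadiest of the 6 genes, with no group spanning more than 3.53 times between its libraries, and its groups overlapped as well. In FPKM, which is per length, NOL was above NYC1 in 9 of the 12 libraries, by up to 3.48 times in WT control replicate 1. NYC1 has 2 annotated transcripts, of which transcript 2 was listed at 0. How reads shared by them were counted is uncertain, which bears on this ratio.

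NYC3 (Os06g0354700, chromosome 6, 14527016 to 14531805, plus strand) was the least abundant of the 6, with 2.45, 6.20 and 5.97 FPKM in phr2 no Pi, against 4.54, 0.870 and 8.15 FPKM in phr2 control. It had 10.6, 10.7 and 16.8 FPKM in WT no Pi, against 2.13, 0.454 and 2.28 FPKM in WT control. The WT no Pi libraries were the 3 highest of the 12, and no single one of them carried the difference. NYC3 has 3 annotated transcripts, of which transcripts 1 (coding length 1461 bases) and 2 (1281 bases) carried the signal and transcript 3 (111 bases) was listed at 0. Transcript 1 was above transcript 2 in 10 of 12 libraries. Its share of the summed FPKM ranged from 16.3% in WT control replicate 1, where the gene had 22 reads, to 94.5% in WT no Pi replicate 2. Since the transcripts overlap, how reads shared by them were counted and divided is uncertain, for the level of the gene as well as for the shares.

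PAO (Os03g0146400, named EARLY SENESCENCE 1 in the table, chromosome 3, 2576609 to 2580404, plus strand) was listed at 0 in every library. It has 2 annotated transcripts of the same coding length, 1590 bases, and both were listed at 0. Genes with several transcripts were more often listed at 0 throughout in this table: 34.3% of 4307 genes with 2 transcripts, against 20.3% of 34488 genes with 1. NYC1 also has a transcript at 0, number 2, which lies within the span of transcript 1. The zeros of PAO are therefore given as listed, with no statement on its expression.

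STR9 (Os06g0725000, chromosome 6, 30823392 to 30825734, minus strand, coding length 435 bases) had 4.66, 8.80 and 25.7 FPKM in phr2 no Pi, against 2.83, 5.73 and 10.2 FPKM in phr2 control. In WT it had 281, 30.9 and 143 FPKM without Pi, against 4.97, 5.95 and 6.74 FPKM in control medium. Every WT no Pi library lay above the other 9 libraries, and in phr2 the groups overlapped. The highest phr2 value, 25.7 FPKM, came from the library labelled phr2 no Pi replicate 3, and the other phr2 libraries lay between 2.83 and 10.2 FPKM.

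**Figure D2:**
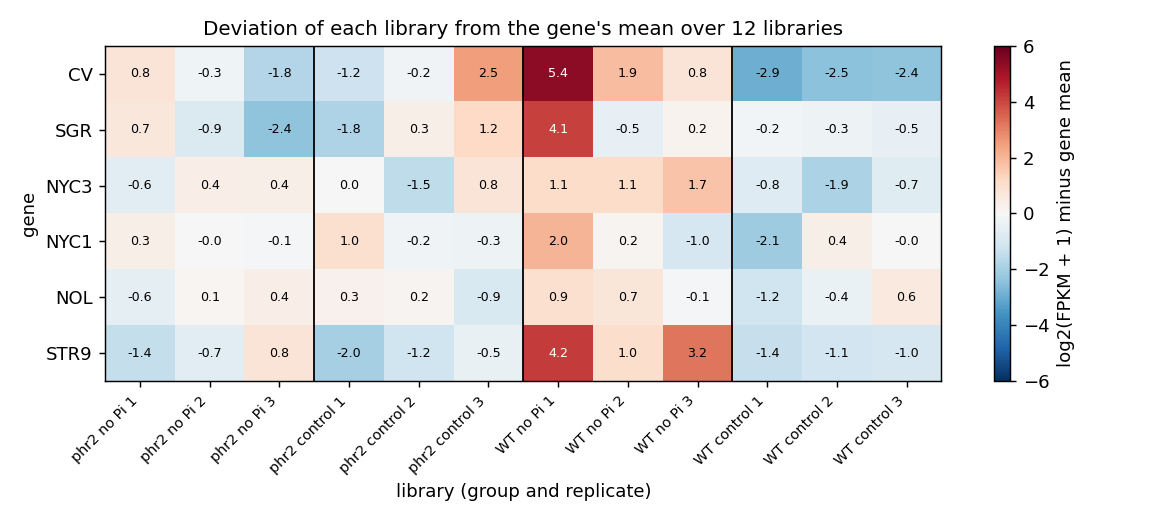
Deviation of log2(FPKM + 1) in each library from the gene's mean over the 12 libraries, with genes as rows and libraries as columns. The WT no Pi replicate 1 column is above the mean for all 6 genes, by 5.37 for CV and 0.94 for NOL, and the WT control columns are below it for CV, SGR, NYC3 and STR9.

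WT no Pi replicate 1 recurred as the top library. It was the highest of the 12 for 5 of the 6 genes and among the top 3 for all 6. It exceeded the next highest library of any group by 7.41 times for CV, 7.52 times for SGR, 2.11 times for NYC1, 1.96 times for STR9 and 1.18 times for NOL. NYC3 was the exception, at 0.632 times the highest other library. The mean deviation of the 6 genes in that library was 2.96 on the log2 scale. The median of all 22648 genes there deviated by 0.01. This library belongs to the contrast that chose the genes, which favoured high values in it, so its places are given as a description. WT no Pi replicate 1 also had the most reads of any library (13122430).

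**Figure D3:**
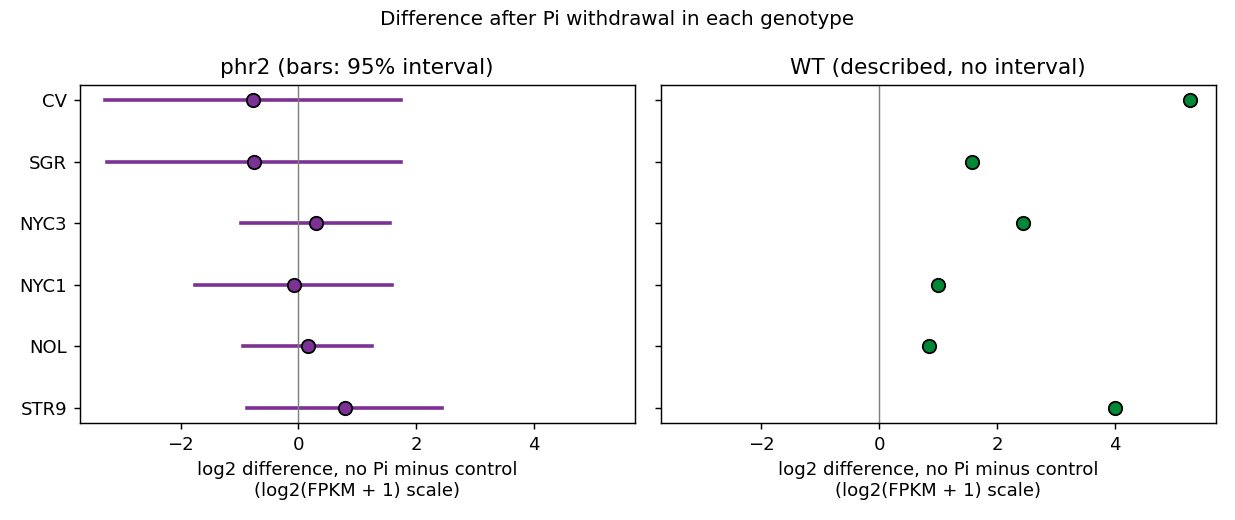
Log2 difference between no Pi and control medium, on the log2(FPKM + 1) scale, in phr2 (left, with 95% intervals) and in WT (right). In phr2 the 6 differences lie between −0.77 and 0.79 and every interval spans 0, and in WT they lie between 0.85 and 5.28.

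The genes were tested in the response to Pi withdrawal in phr2, where each difference is between phr2 libraries only. The WT libraries still entered every SE, interval and p through the shared estimate of the spread. Without WT no Pi replicate 1 the SE was 0.88 for CV and 0.82 for SGR, and with the phr2 groups fitted alone it was 1.02 for CV and 0.98 for SGR, with no member called in limma either way. None of the 6 passed the limma test at an adjusted p under 0.05, and none had an unadjusted p under 0.05. The background was the same: 0 of 22648 genes passed, a share of 0%, with 885 genes (3.91%) below 0.05 before adjustment, and voom on the recovered reads called 0 (864 before adjustment). CV differed between phr2 no Pi and phr2 control by −0.77 (SE 1.15, 95% interval −3.28 to 1.74, limma adjusted p = 0.998). SGR differed by −0.76 (SE 1.14, interval −3.25 to 1.74). These are the widest intervals of the set and still hold changes of several fold in either direction.

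NOL gave the narrowest interval of the 6. NYC1 differed by −0.08 (interval −1.76 to 1.59), a sign that turned to 0.017 after rescaling the libraries to the same FPKM sum, and NOL by 0.16 (interval −0.94 to 1.25). NYC3 differed by 0.29 (interval −0.97 to 1.55) and STR9 by 0.79 (interval −0.87 to 2.44). Limma adjusted p was 0.998 or above for each of these 6 genes. With 3 libraries against 3 the exact two-sided permutation test cannot go below p = 0.10, and it gave from 0.5 for STR9 to 1 for NYC1. The ranges of the phr2 groups overlapped for all 6 genes, where 9.75% of all genes tested had ranges that did not (4.47% higher and 5.28% lower in phr2 no Pi). Without the library labelled phr2 no Pi replicate 3, the STR9 difference shrank to 0.17. The same omission moved SGR to 0.014, NYC1 to 0.016 and NOL to −0.042. The sign of the CV difference rested on phr2 control replicate 3, being 0.30 without it.

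The WT response, known before the genes were chosen, is given as a description. All 6 genes had a higher mean in WT no Pi than in WT control, with log2 differences of 5.28 for CV, 3.99 for STR9, 2.45 for NYC3, 1.58 for SGR, 1.00 for NYC1 and 0.85 for NOL. The group ranges did not overlap for 3 of them, CV, NYC3 and STR9, and overlapped for SGR, NYC1 and NOL. Over all genes tested, 24.8% did not overlap in either direction and 11.9% had WT no Pi values entirely above WT control, and nothing is read from the members' count because the same contrast chose them. The median difference of the 6 was 2.01, against −0.01 over all genes.

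The WT differences of SGR and NYC1 rested on WT no Pi replicate 1. Without it, SGR differed by 0.16 and NYC1 by 0.18. CV then differed by 3.93, STR9 by 3.31, NYC3 by 2.55 and NOL by 0.64. NYC1 also depended on WT control replicate 1, its lowest library, without which the difference was 0.24, and NOL was at 0.42 without the same library. The order CV, STR9, NYC3 at the top was kept without WT no Pi replicate 1.

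**Figure D4:**
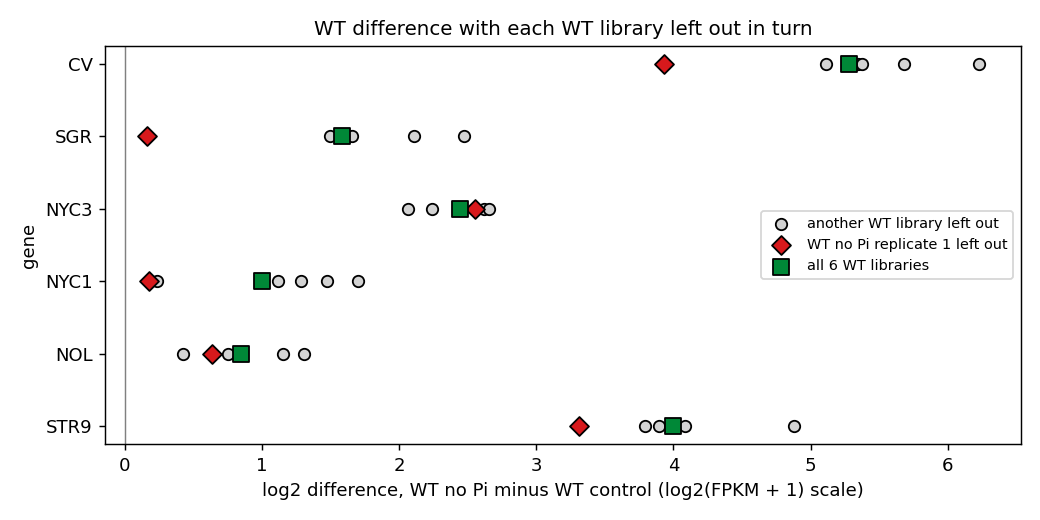
Log2 difference between WT no Pi and WT control for each gene (log2(FPKM + 1) scale), with all 6 WT libraries (squares), without WT no Pi replicate 1 (diamonds) and without each other WT library in turn (circles). The SGR diamond lies at 0.16 and the NYC1 diamond at 0.18, while CV, STR9 and NYC3 stay at 2.55 or more without that library.

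Between the genotypes, all 6 genes had a lower mean in phr2 no Pi than in WT no Pi, with log2 differences (phr2 minus WT) of −3.26 for STR9, −3.09 for CV, −2.12 for SGR, −1.27 for NYC3, −0.52 for NOL and −0.34 for NYC1. All 3 phr2 libraries lay below all WT libraries for CV, NYC3 and STR9. For CV the nearest libraries were tied within counting error, at 73 reads in phr2 no Pi replicate 1 (exact Poisson 95% interval 57.2 to 91.8) and 69 reads in WT no Pi replicate 3 (53.7 to 87.3). The background share of genes lower in this way was 5.46%, beside 5.96% higher. Nothing is read from that count either, since the WT no Pi libraries are those that made the genes stand out. Without WT no Pi replicate 1 the differences were −2.57 for STR9, −1.74 for CV and −0.70 for SGR, and NYC1 turned to 0.48. Without the library labelled phr2 no Pi replicate 3 the differences were −3.87 for STR9, −2.41 for CV, −1.43 for NYC3, −1.35 for SGR, −0.72 for NOL and −0.24 for NYC1.

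In control medium the genotypes were likewise only described, since WT control is part of the contrast that chose the genes. CV averaged 37.4 ± 48.0 FPKM in phr2 control and 1.77 ± 0.513 FPKM in WT control (SD, n = 3 each), a log2 difference of 2.96 with no overlap of the ranges. The phr2 libraries had 17, 33 and 198 CV reads, against 2, 4 and 5 in WT. Without phr2 control replicate 3, its highest library, the difference was 1.89. CV was the 1 member of 6 whose ranges did not overlap here, beside a background of 9.18% of genes higher in phr2 control and 21% in either direction, and nothing is read from that count. NYC3 differed by 0.89 with overlapping ranges, less than the larger SD of both groups (1.17), and by 0.39 without phr2 control replicate 3 and 1.53 without phr2 control replicate 2. The differences of NYC1 (0.74), SGR (0.22), NOL (0.17) and STR9 (−0.05) were each smaller than the larger of the SDs of both groups on that scale, and each changed sign when 1 library was left out, as STR9 also did after rescaling (0.28). The difference between the responses of phr2 and WT was not tested for these genes, because it holds the WT libraries.

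Ordered by mean log2 level, WT no Pi came first for all 6 genes, a place that the choice of the genes favoured, so steps that involve WT are given as sizes only. For CV the order was WT no Pi, phr2 control, phr2 no Pi and WT control, with steps of 2.32, 0.77 and 2.19 beside larger SDs of the neighbouring groups of 2.40, 1.92 and 1.28. For NYC3 and STR9 the first step, between WT no Pi and phr2 no Pi, was 1.27 for NYC3 and 3.26 for STR9, beside larger SDs of 0.60 and 1.61. The other steps of NYC3 and STR9, and each step of SGR, NYC1 and NOL, were smaller than the larger SD of the neighbouring groups.

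With all 4 groups pooled, CV and SGR were among the most variable genes of the table within groups. Their residual SD was 1.67 and 1.66 on the log2 scale, at the 97.7th percentile of all genes tested for both, where the median gene had 0.57. This SD includes WT no Pi, where the choice of the genes favoured high values. By group the SD of CV was 2.40 in WT no Pi, 1.92 in phr2 control, 1.28 in phr2 no Pi and 0.28 in WT control. For SGR it was 2.49, 1.58, 1.54 and 0.16 in the same order. NYC1 stood at the 89.8th, STR9 at the 89.2nd, NYC3 at the 72.6th and NOL at the 63.5th percentile. By level, NOL (84.0th) and SGR (80.6th) were among the more abundant genes and NYC3 (35.3rd) among the less abundant.

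Among the members themselves the profiles were closest for CV and SGR (r = 0.773), NYC3 and STR9 (0.734), CV and STR9 (0.678) and NYC1 and NOL (0.659) over the 12 libraries. WT no Pi replicate 1 lay 5.37 above the gene's mean for CV, 4.11 for SGR and 4.20 for STR9 on the log2 scale. The r values, also those with other genes below, rest in part on this library, and r without it was not computed. Genes of the whole table with the most similar profile over the 12 libraries were found by the same measure, the Pearson r of log2(FPKM + 1), given as a description of these libraries, which share groups. For CV these were Os03g0168300, with a DUF1997 domain of unknown function (r = 0.951), and Os06g0244000, similar to an anthranilic acid methyltransferase (r = 0.943). For SGR they were a glycerol-3-phosphate acyltransferase gene, Os02g0114400 (r = 0.941), and Os02g0717500 (r = 0.930). The NYC3 profile was closest to Os05g0564800, similar to a ribosomal L18a protein (r = 0.968), and to Os10g0135600, an alpha/beta hydrolase gene as NYC3 is (r = 0.962). STR9 was closest to Os12g0550800, a conserved hypothetical protein (r = 0.960), and to PATHOGEN-INDUCIBLE OXYGENASE (Os12g0448900), which oxygenates fatty acids (r = 0.957). NYC1 and NOL had no neighbour above 0.880. Their closest genes were Os08g0527700, of the NRT1/PTR family (0.880), and Os12g0138050, similar to an EF hand protein (0.858), for NYC1. For NOL they were BETA-GALACTOSIDASE 13 (Os12g0429200, 0.871) and ASCORBATE PEROXIDASE 9 (Os09g0538600, 0.861).

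The other genes annotated to chlorophyll breakdown number 18, of which 12 passed the filter. This list and those below were matched by annotation words, but chosen with earlier results of these data known. Their p-values in comparisons with WT libraries are not free of that choice. None of the 12 rose or fell in limma in any of the comparisons, whether the phr2 response, the WT response, phr2 minus WT in either medium or the interaction. At an unadjusted limma p under 0.05 there were 0, 3, 1, 2 and 2 of them, in that order with no Pi medium before control medium. Of all 22648 genes tested, 885, 5671, 1963, 4189 and 2002 were below 0.05 in the same order. Voom called 0 of the 12 except 1 in the WT response, where it called 959 of all genes. The background of genes called by limma was 0% for the phr2 response, 2.36% for the WT response, 0% for phr2 minus WT without Pi, 0.667% in control medium (0.0795% higher and 0.587% lower) and 0% for the interaction. The median of the 12 was 0.10 in the phr2 response (0.02 over all genes) and 0.48 in the WT response (−0.01 over all genes).

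**Figure D5:**
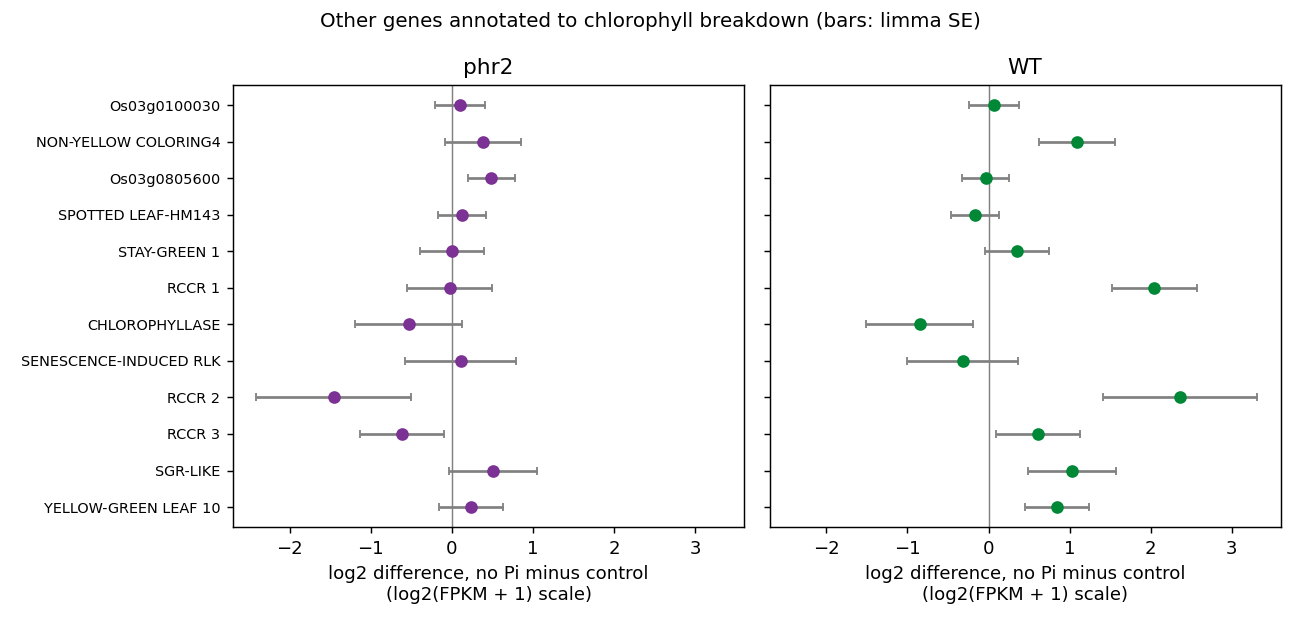
Log2 difference between no Pi and control medium, with limma SE, for the 12 other chlorophyll breakdown genes tested, from the most abundant at the top to the least, in phr2 (left) and WT (right). RED CHLOROPHYLL CATABOLITE REDUCTASE (RCCR) 1 and 2 lie at 2.04 and 2.36 in WT and at −0.03 and −1.46 in phr2, and none passed the test.

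RED CHLOROPHYLL CATABOLITE REDUCTASE 1 (Os10g0389200), which acts after PAO, came closest to the threshold. It had 58.8, 43.3 and 19.4 FPKM in phr2 no Pi, against 25.7, 42.6 and 48.3 FPKM in phr2 control. In WT it had 148, 42.3 and 55.7 FPKM without Pi, against 11.7, 23.1 and 16.1 FPKM in control medium (log2 difference 2.04, SE 0.52, limma adjusted p = 0.0609). Its WT ranges did not overlap, and replicate 1 was again the highest of WT no Pi. Over 20 alternatives its adjusted p ranged from 0.0316 to 0.192, passing in 4. RCCR 2 (Os10g0389300) averaged 16.3 ± 18.1 FPKM in WT no Pi and 1.87 FPKM in WT control (adjusted p = 0.154), and RCCR 3 (Os10g0389100), described as a truncated copy of RCCR 1, averaged 5.09 FPKM in WT no Pi and 2.94 FPKM in WT control. These neighbouring copies can share reads, so the division between them is uncertain.

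The remaining genes of the route did not pass the test either. SGR-LIKE (Os04g0692600), a relative of SGR, averaged 8.51 FPKM in phr2 no Pi and 5.28 FPKM in phr2 control, and 5.22 FPKM in WT no Pi and 2.42 FPKM in WT control. SPOTTED LEAF-HM143 (Os04g0320100), the hydroxymethyl chlorophyll a reductase that completes the conversion begun by NYC1 and NOL, averaged 103 and 95.3 FPKM in phr2 no Pi and phr2 control, and 108 and 124 FPKM in WT no Pi and WT control. Its groups lay close together in all 4 conditions. A chlorophyllase family gene (Os10g0419600) averaged 31.1 and 38.5 FPKM in phr2 no Pi and phr2 control, and 21.6 and 48.6 FPKM in WT no Pi and WT control.

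Several list genes are not enzymes of the route. NON-YELLOW COLORING4 (Os07g0558500), matched to THYLAKOID FORMATION1, averaged 386 and 283 FPKM in phr2 no Pi and phr2 control, and 390 and 213 FPKM in WT no Pi and WT control (WT log2 difference 1.09, limma adjusted p = 0.179). STAY-GREEN 1 (Os07g0462000) is described as a glutamate-cysteine ligase, and Os03g0100030 as the ortholog of a soybean gene of seed dormancy. Os03g0805600 is matched to a protochlorophyllide-dependent translocon component, and YELLOW-GREEN LEAF 10 (Os10g0567400) is chlorophyllide a oxygenase, which makes chlorophyll b. SENESCENCE-INDUCED RECEPTOR-LIKE KINASE (Os01g0223600) is a kinase. Of these, Os03g0100030 was the most abundant, at a mean of 417 FPKM over the 12 libraries. The 6 genes below the filter were Os03g0806300, Os03g0805700, Os03g0805900, Os10g0389402, HEMOPEXIN FOLD PROTEIN (Os04g0213100) and Os02g0286700, each at a mean of 0.0804 FPKM or less, the last of them listed at 0 throughout.

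STR9 belongs to a family of rhodanese and sulfurtransferase genes, and on the deposited scale most of the others lay on the opposite side in WT. Of 18 tested, 0 rose and 5 fell in the WT response, 5 of the 18 differences were above 0, and the list had a median of −0.52 against −0.01 over all genes, where limma called 0.958% of all genes higher and 1.4% lower. SULFURTRANSFERASE 12 (Os02g0257300), matched to the thylakoid rhodanese-like protein that anchors an electron transfer enzyme, fell to 175, 228 and 157 FPKM in WT no Pi, against 764, 747 and 789 FPKM in WT control (log2 difference −2.05, SE 0.31, limma adjusted p = 0.0291, passing in 14 of 20 alternatives). Its phr2 groups had 299, 637 and 446 FPKM without Pi, against 452, 417 and 381 FPKM in control medium, with overlapping ranges. SULFURTRANSFERASE 2 (Os03g0289400, −1.89) and the chloroplast rhodanese gene Os03g0861700 (−1.91) also fell in WT, both at a limma adjusted p of 0.0442, which passed in 3 of 20 alternatives for SULFURTRANSFERASE 2 and in 5 of 20 for Os03g0861700. After rescaling the WT difference was −1.35 for SULFURTRANSFERASE 2 and −1.38 for Os03g0861700. In the phr2 response none of the 18 passed the limma test (1 had an unadjusted p under 0.05, and voom called 0).

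Further lists covered the fate of the released material. Of 19 phytol and tocopherol genes, 1 rose and 1 fell in the WT response, where 0.958% of all genes rose and 1.4% fell (median −0.37, against −0.01 over all genes). The fall was in Os12g0615400, matched to a methyltransferase of tocopherol and plastoquinone synthesis, to 374, 433 and 295 FPKM in WT no Pi, against 1357, 1117 and 712 FPKM in WT control (log2 difference −1.50, limma adjusted p = 0.0428, passing in 4 of 20 alternatives). The rise was in an unannotated locus matched to phytyl ester synthase 1, an enzyme that stores phytol as fatty acid esters. It averaged 8.51 FPKM in WT no Pi and 2.24 FPKM in WT control (log2 difference 1.58, limma adjusted p = 0.0440, passing in 6 of 20 alternatives). Of 54 chloroplast protease genes 1 rose and 0 fell in WT (median −0.17), beside the same 0.958% and 1.4% of all genes. At an unadjusted limma p under 0.05 there were 15 of the 54, beside 5671 of all 22648 genes. The gene that rose, Os02g0293500, is matched to a mitochondrial CLPX subunit, not a chloroplast one (log2 difference 2.33, limma adjusted p = 0.0461, passing in 4 of 20 alternatives).

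Vacuolar proteases and genes annotated to senescence did not pass in the WT response. Of all 22648 genes, 2.36% passed limma in that response, voom called 959, and 5671 had an unadjusted limma p under 0.05. Nothing is read from counts of 0 in lists of this size. Of 13 vacuolar protease genes 0 passed the limma test there (0 had an unadjusted p under 0.05, and voom called 0), with a median of −0.25. Their most abundant gene, ORYZAIN ALPHA CHAIN (Os04g0650000), averaged 713 and 1370 FPKM in phr2 no Pi and phr2 control, and 1262 and 1989 FPKM in WT no Pi and WT control. Of 75 senescence genes, some of which are also in the other lists, 0 passed in the WT response (10 had an unadjusted p under 0.05, and voom called 2), with a median of −0.17. In control medium 1 of the 75 was lower in phr2 than in WT, beside 0.587% of all genes. It was Os07g0691300, matched to a senescence associated gene of the wound-induced type. It had 5.89, 7.12 and 54.2 FPKM in phr2 control, against 1147, 671 and 407 FPKM in WT control (log2 difference −5.55, limma adjusted p = 0.0484, with a range of 0.00468 to 0.199 over 20 alternatives, of which 4 passed). In phr2 no Pi it had 31.4, 44.2 and 560 FPKM, the last value coming from the library that stood apart. Over the 6 lists, 180 genes were tested. In limma and in voom, 0 passed in the phr2 response, phr2 minus WT without Pi or the interaction, as over all genes. At an unadjusted limma p under 0.05 there were 4, 11 and 24, beside 885, 1963 and 2002 of all 22648 genes.

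Of the 180 list genes tested 8 passed in the WT response, beside 534 of all 22648 genes (2.36%). The count of 8 moved with single libraries. Leaving out replicate 1 or 2 of WT control, or replicate 1 or 3 of WT no Pi, brought the count to 0. Without replicate 2 of WT no Pi 8 passed, and without replicate 3 of WT control 28 passed. The matching counts over all genes are not given here, so these moves are not read as particular to the lists. With 1 library left out in turn, the differences moved less than the calls did. SULFURTRANSFERASE 12 stayed at −2.20 to −1.94 and the unannotated phytyl ester synthase locus at 1.35 to 1.75. Scaling also moved them: SULFURTRANSFERASE 12 lay at −1.51 after rescaling and −1.46 under quantile normalization. In the same order, Os12g0615400 lay at −0.95 and −0.78, against −1.50 in the main fit, and the phytyl ester synthase locus at 1.96 and 1.49. A phr2 library enters through the shared estimate of the spread. Leaving 1 out brought the count of list genes called to 1, 1 and 2 for phr2 control replicates 1 to 3. For phr2 no Pi replicates 1 to 3 the count was 1, 1 and 3.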

How the data were processed

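The members and lists were chosen with earlier results of these data known. Leaf RNA of 12 libraries was analysed from 1 table of FPKM (fragments per kilobase of coding length, scaled by library), deposited by the authors with 1 row for each of 46947 transcripts. The submitters' processing notes name Bowtie 0.12.2, HISAT2 2.0 and StringTie 1.3.0, and mm8, a mouse build, although rows carry rice identifiers. The rice assembly is not given in the sources used here, nor is strandedness, and positions stand as the deposited table has them. The FPKM times coding length were whole multiples of 1 fragment for 100% of values above 0 (tolerance 0.01), which gave reads. The deposited scale differs from those reads by 0.674 to 1.21 times between libraries.

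FPKM was summed per gene, kept at 1 or more in at least 3 libraries (22648 of 39967 genes), and tested as log2(FPKM + 1), a scale that understates changes of low genes. The test used R 4.3.3 and limma 3.58.1 (trend option) with 4 group means over 12 libraries (8 residual and 3.78 prior degrees of freedom), with Benjamini-Hochberg adjustment over all genes kept, and it was tested on simulated data. Members were tested in the phr2 response alone. Lists were matched by annotation words. Named genes are the members, every other chlorophyll breakdown gene, up to 3 genes that passed per further list (or its most abundant gene) and the 2 most similar profiles per member. Alternatives were another pseudocount, no filter, rescaling, quantile normalization, fewer groups, voom, a replicate block and libraries left out. Figures used Python 3.11.15 and matplotlib 3.10.9, and labels jsonlite 2.0.0.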

Additional observations from a re-analysis of the deposited data

How the results depend on the processing

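No member passed in the phr2 response under any of the 20 alternatives run. The number of all genes called there was 1 without a filter, 1 with only the phr2 groups fitted, and 0 to 33 with 1 library left out. Signs of small phr2 differences turned: NYC1 to 0.017 after rescaling and 0.025 in voom, and, on leaving out 2 libraries together (replicate 1 of WT control and replicate 3 of phr2 no Pi), SGR to 0.014, NYC1 to 0.016 and NOL to −0.042. With 1 library left out they ranged from −1.57 to 0.30 for CV, −1.63 to 0.014 for SGR, −0.35 to 0.79 for NYC3, −0.31 to 0.33 for NYC1 and −0.22 to 0.43 for NOL. The cause was not tested. List genes called in the WT response numbered 1 without a filter, 1 under quantile normalization, 0 with only the WT groups, 1 with the replicate block, 2 with those 2 left out, and 0 to 28 with 1 left out. For phr2 minus WT without Pi they were 5 with those 2 left out and 0 to 4 with 1 left out. In control medium they were 0 with a pseudocount of 0.1, without a filter, after rescaling, under quantile normalization, in voom and with the replicate block, 5 with only the 2 groups, 8 with those 2 left out and 0 to 7 with 1 left out. For these list counts, the matching counts over all genes are not given here. Members whose WT ranges did not overlap numbered 3 to 4 with 1 WT library left out, by construction easier with fewer libraries. Rescaling each library to the same FPKM sum moved the median of all genes to 0.41 in the WT response, where the members then lay at 1.38 to 5.66. The labels do not say whether same-numbered libraries shared more than a number. The correlations of their deviations between no Pi and control medium were −0.24, −0.05 and 0.10 in phr2 and 0.26, 0.08 and 0.17 in WT. Between phr2 and WT they were 0.30, 0.07 and −0.12 without Pi and −0.34, 0.04 and −0.14 in control medium. Such correlations cannot decide whether libraries were handled together. Depth limits CV most, at 2 to 5 reads in WT control.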

Other observations

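STR9 is not the only gene described as similar to DIN1. SULFURTRANSFERASE 7 (Os12g0428000), singled out after its values were seen, had 168, 288 and 318 FPKM in phr2 no Pi, against 45.4, 124 and 27.7 FPKM in phr2 control. In WT it had 670, 276 and 369 FPKM without Pi, against 14.1, 176 and 58.5 FPKM in control medium. Both genotypes had all no Pi libraries above all control libraries, which 4.47% of genes tested showed in phr2 and 11.9% in WT. The share of genes that showed it in both genotypes was not computed. Neither difference passed in limma, at 2.18 on the log2 scale in phr2 (adjusted p = 0.998) and 2.92 in WT (adjusted p = 0.0685). For STR9 the phr2 groups overlapped.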
